A study of Mus musculus with 2 samples.

Results

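The receptors through which retinal cells sense glutamate, GABA and glycine were followed across 6 cell classes of mouse retina and between light conditions. Their genes were taken by symbol: AMPA, kainate, NMDA and delta-type glutamate receptor subunits, metabotropic glutamate receptors other than Grm6, GABA-A and GABA-rho subunits, GABA-B subunits and glycine receptor subunits. The symbols matched 53 of 32285 genes in the files. Of these, 51 encode receptor subunits, and 2 matched by spelling only, among them Grin1os, a transcript from the strand opposite Grin1. The data are single-cell RNA sequencing of whole retina, with 1 library from mice kept under short-wavelength light and 1 from mice kept under full-spectrum white light, both from postnatal day 14 for 2 weeks. Strain, sex and the number of mice per library are not given in the sources used here. With 1 library per condition there is no replicate, no test was possible, and each difference between conditions is a difference between these libraries.

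Photoreceptors release glutamate in darkness. ON bipolar cells read it through the metabotropic receptor encoded by Grm6, which is not among the genes followed here, while OFF bipolar cells read it through AMPA and kainate receptor channels. Amacrine cells return GABA and glycine to bipolar cell terminals, where GABA-rho, GABA-A and glycine receptors sit, and horizontal cells act on photoreceptors. GABA-A and glycine receptors are pentamers built from alpha, beta, gamma and other subunits, rho subunits form slow channels with little desensitization, and GABA-B receptors are pairs of Gabbr1 and Gabbr2. AMPA, kainate and NMDA receptors are tetramers, and each needs its own subunits in the same cell.

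All 3 rho subunit genes had a bipolar class as their leading class, by a rule given below, and Gabrr2 and Gabrr1 are neighbours on chromosome 4, both on the plus strand, at 33062999-33095865 and 33132521-33163588 (mm10, GENCODE annotation). Gabrr3 lies on chromosome 16 at 59407332-59464504, also on the plus strand. Their upstream sequences are shown because these genes of 1 family were all led by a bipolar class, Gabrr1 by rod bipolar cells and Gabrr2 and Gabrr3 by cone bipolar cells. Each line gives the 250 bases before the RefSeq start site (GRCm38.p6, plus strand, 5′ to 3′) at chr4:33132306-33132555 for Gabrr1, chr4:33062862-33063111 for Gabrr2 and chr16:59407132-59407381 for Gabrr3. The GENCODE gene starts given above lie inside these windows, so by that annotation the end of each window is within the gene. Capitals mark TAATCC on either strand, a core motif of photoreceptor and bipolar homeodomain factors.
Gabrr1: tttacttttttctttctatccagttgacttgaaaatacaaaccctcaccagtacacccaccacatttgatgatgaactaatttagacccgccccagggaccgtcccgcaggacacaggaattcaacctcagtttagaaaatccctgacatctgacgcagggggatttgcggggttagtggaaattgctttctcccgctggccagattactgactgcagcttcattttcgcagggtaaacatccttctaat
Gabrr2: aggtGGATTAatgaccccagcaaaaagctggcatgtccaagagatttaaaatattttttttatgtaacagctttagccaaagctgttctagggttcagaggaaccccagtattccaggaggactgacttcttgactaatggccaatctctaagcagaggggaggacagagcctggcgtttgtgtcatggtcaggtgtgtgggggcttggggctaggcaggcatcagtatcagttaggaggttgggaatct
Gabrr3: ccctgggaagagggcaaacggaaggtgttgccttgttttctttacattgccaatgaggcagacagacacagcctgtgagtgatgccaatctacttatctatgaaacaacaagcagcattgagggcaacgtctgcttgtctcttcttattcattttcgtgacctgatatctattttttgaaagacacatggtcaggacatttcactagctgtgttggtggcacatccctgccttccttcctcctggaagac
In these windows, Gabrr2 held 1 copy, read on the minus strand, and neither Gabrr1 nor Gabrr3 held one. RefSeq promoters were found for 37 of the 53 genes, 45 promoters in all, of which 3 held TAATCC in the 250 bases (Gabrr2, Gabra2 and Grin1os), against 6.25% of 32817 promoters. TAATTA, the core of many other homeodomain sites, was in 1 of the 45 (Gabrg1) and in 4.85% of all, and it shares its first 4 letters with TAATCC.

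The short-wavelength library held 16106 barcodes and 51681469 unique molecular identifiers (UMIs, each counting 1 captured RNA molecule), and the white-light library 5707 barcodes and 20952589 UMIs. After filters, 14023 and 5436 barcodes remained, of which 23 carried the same barcode in both libraries (26 before filters). Cells were put in classes by UMIs of marker genes, none of them a receptor gene followed here: 13181 and 5000 rods, 302 and 96 cones, 115 and 37 rod bipolar cells, 45 and 11 cone bipolar cells, 5 and 4 amacrine cells, and 85 and 32 Müller glia (short-wavelength first, here and below). Median UMIs per cell were 2322 and 2715.5 in rods and between 5861 and 8682 in the other classes. Rod RNA was present in every other class: the summed level of 3 rod genes kept out of the gates (Cngb1, Slc24a1 and Esrrb) stood at 0.0545 to 0.172 of its level in rods. Levels are UMIs of a gene per 1000000 UMIs of the class (CPM), over both libraries unless each is given, and all intervals are 95% intervals of counting error only. Levels are compared between classes and libraries for 1 gene at a time, not between genes.

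Clear class preferences among the receptor genes fell mostly on bipolar and amacrine cells. A clear class preference was called where the leading class held at least 10 UMIs and its interval lay above those of the other 5 classes. Of 31 genes with enough UMIs, 18 had one, and over all genes with enough UMIs the share was 15.5%. Cone bipolar cells led for 6, among them Gabrr2, Gabrr3, Gabbr2, Grik1 and Grin3a, against 1.02% of all genes, and rod bipolar cells for 3 (Gabrr1, Glra1 and Grid1) against 1.86%. Amacrine cells led for 8 (Grm8, Grik2, Gria3, Gria4, Grin1, Grin2b, Gabrg3 and Glra2) against 1.77%. None had a clear preference for rods (4.51% of all genes) or cones (2.06%), and the share of all genes that Müller glia led in this way was 4.28%. Of the 31 genes, rods led only Grin2d, at 7.52 CPM, and cones only Gabrd, at 9.51 CPM. The interval in amacrine cells reaches at least 63.7 CPM for any gene, so the rule could call neither. In all 18 the same class led in each library taken alone, and 11 passed the rule in the short-wavelength library alone. Gabrr1 and Gabrr2 were among those that did not pass it in the white-light library alone. The amacrine calls rest on 9 cells, with 30685 and 27266 UMIs, and the interval of a count of 0 there reaches 63.7 CPM. Without the cell that held most UMIs of the gene in each library, Grin2b stood at 213 CPM, Gria3 at 175 CPM and Glra2 at 175 CPM in amacrine cells and Grin3a at 63.9 CPM in cone bipolar cells, and these 4 lost their clear preference. Gabrg3 at 406 CPM, Gria4 at 980.2 CPM and Grik2 at 1216 CPM in amacrine cells kept theirs.

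**Figure D1:**
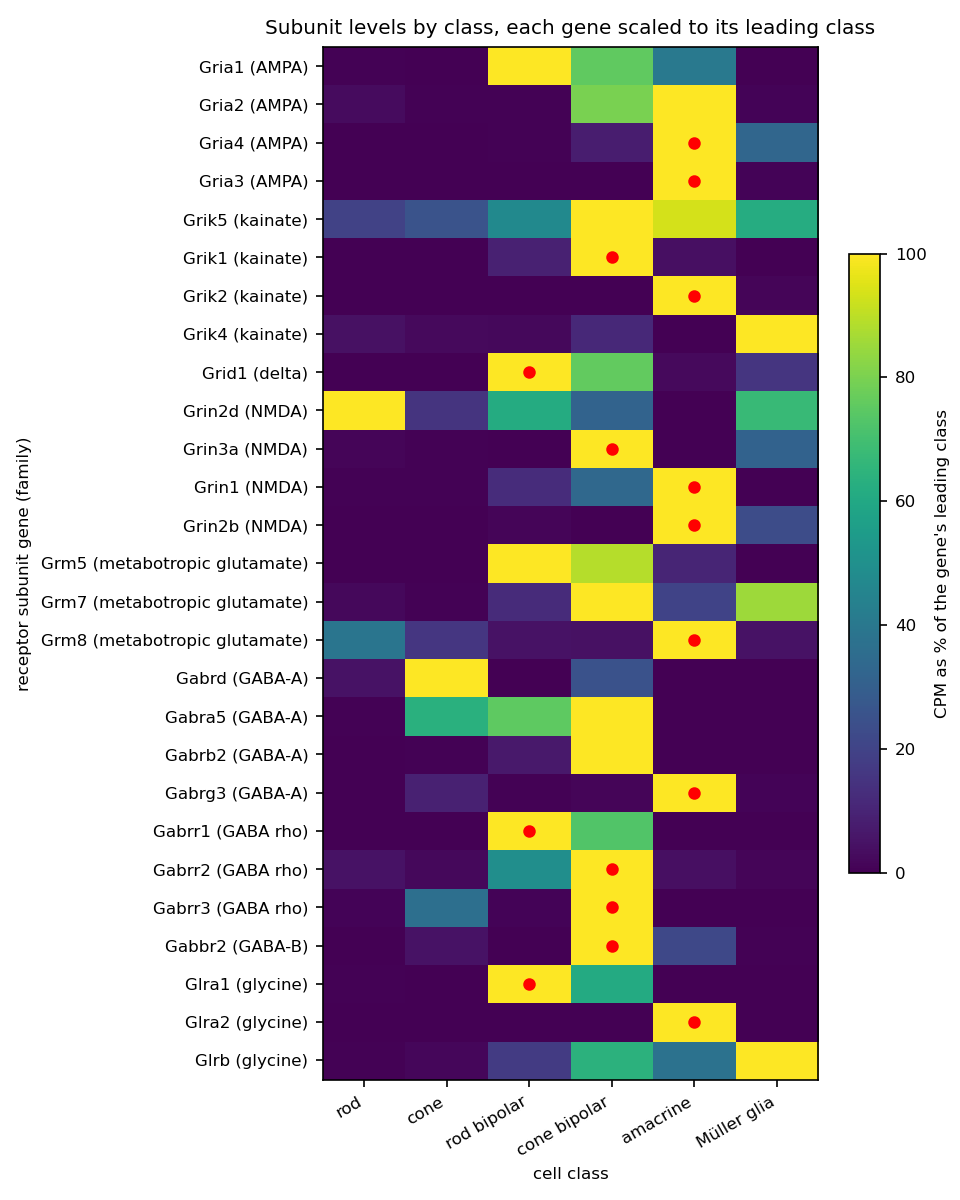
Level of 27 receptor genes (rows, with family) in 6 cell classes (columns), both libraries pooled. Colour gives CPM as a percentage of the gene's leading class and red dots mark 16 clear preferences, all in the bipolar and amacrine columns.

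Among GABA-A subunits, cones shared Gabra5 with the bipolar classes and stood above both in Gabrg3. Gabra5, an alpha subunit, stood at 93.6 CPM (82.2 to 106) in cones, 111 CPM in rod bipolar and 148 CPM (113 to 189) in cone bipolar cells, and the intervals of cones and rod bipolar cells overlapped. Gabrg3, a gamma subunit, stood at 100.03 CPM (88.3 to 113) in cones against 4.62 CPM in rod bipolar and 14.3 CPM in cone bipolar cells. Its leading class was amacrine, at 815 and 1357 CPM, but 18 of 25 and 29 of 37 of those UMIs came from 1 cell in each library. Gabrd, a delta subunit of receptors outside synapses, was led by cones with 25 UMIs, 9.51 CPM (6.15 to 14.0), against 0.46 CPM in rods. Gabra5 overlaps another gene on the opposite strand. Whether strand was used in counting is not given in the sources used here, so it is not known whether reads of either gene in the overlap were told apart. Gabrb2, a beta subunit, stood at 83.3 CPM (58.0 to 116) in cone bipolar and 5.55 CPM in rod bipolar cells, and the alpha subunit Gabra6 had 2 UMIs in all. In the cluster on chromosome 5, Gabra2 and Gabrb1 held 102 and 103 UMIs and Gabrg1 and Gabra4 at most 6 each, and in the cluster on the X chromosome Gabra3 held 13 UMIs and Gabre and Gabrq none. Gabra4 and Gabrb1 also overlap on opposite strands.

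The rho subunits were led by bipolar cells, with Gabrr3 also counted in cones and Gabrr2 in rods. Gabrr1 stood at 344 and 318 CPM in rod bipolar and at 240.1 and 265 CPM in cone bipolar cells, against 1.04 and 1.72 CPM in rods. Gabrr2 stood at 403 and 423 CPM in rod bipolar and at 876 and 644 CPM in cone bipolar cells. The neighbouring genes thus had opposite leading classes by level in each library. In the white-light library the intervals of the bipolar classes overlapped for both. There they were 259 to 387 CPM in rod bipolar and 168 to 397 CPM in cone bipolar cells for Gabrr1. For Gabrr2 they were 354 to 502 CPM and 487 to 837 CPM. In rods Gabrr2 was still counted at 39.2 CPM in each library, and 1271 of 13181 and 550 of 5000 rods held at least 1 UMI. In cones, which also hold rod RNA, Gabrr2 was at 17.9 CPM (13.1 to 23.8). Gabrr1 and Gabrr2 were found together in 88 of 115 and 32 of 37 rod bipolar cells. Gabrr3 stood at 105 and 149.6 CPM in cone bipolar cells and at 46.0 and 29.7 CPM in cones, with 1 UMI over all rod bipolar cells. The clear preference of Gabrr2 was kept under all 9 alternatives, that of Gabrr1 was lost with doubled marker UMIs in the gates and with cells thinned to 1000 UMIs, and that of Gabrr3 was lost under both of these and with all 10 cone markers in the cone gate, where it stood at 76.5 CPM in cone bipolar cells.

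**Figure D2:**
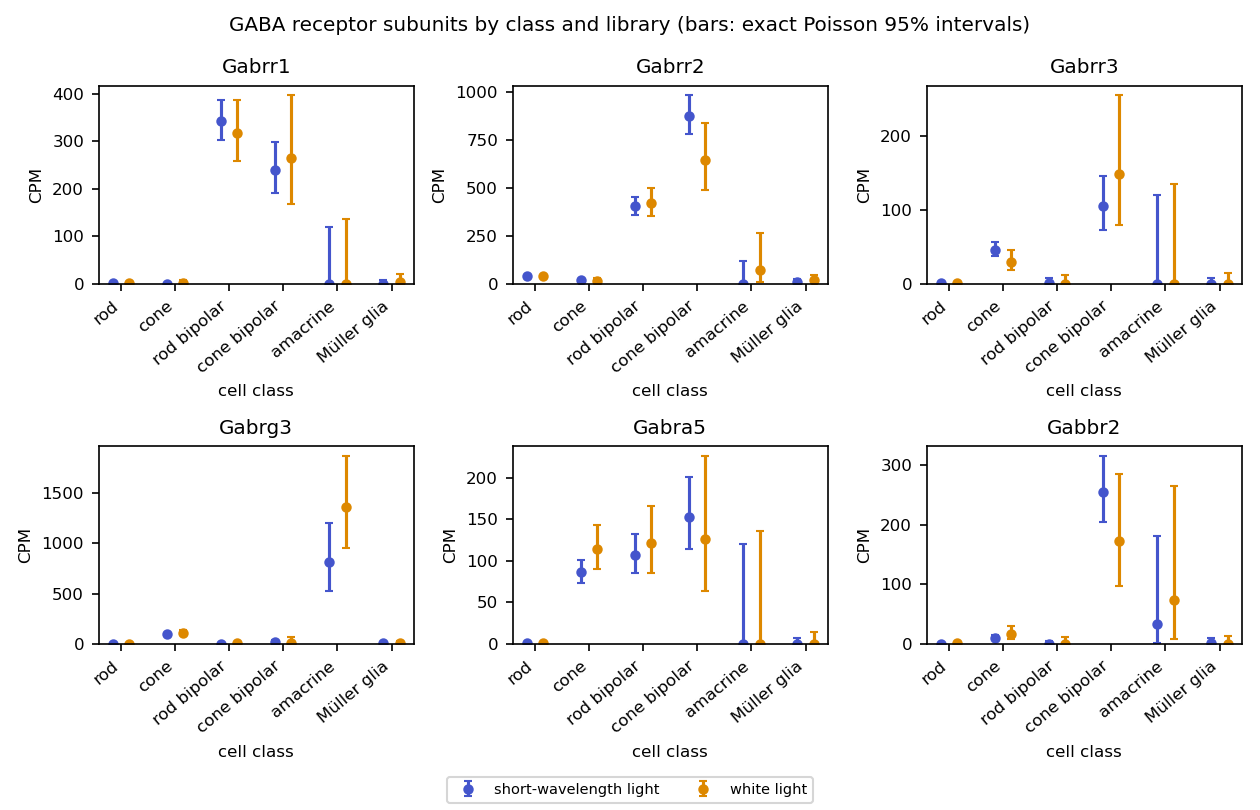
CPM (linear axis) of 6 GABA receptor genes in 6 classes, with blue points for the short-wavelength and orange points for the white-light library and bars for exact Poisson 95% intervals. Gabrr1 and Gabrr2 are high in both bipolar classes, Gabrr3 is seen in cones and cone bipolar cells, Gabrg3 in amacrine cells and cones, Gabra5 in cones and both bipolar classes, and Gabbr2 in cone bipolar cells.

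The GABA-B partners followed different patterns. Gabbr1, which binds GABA, was counted in all 6 classes, from 31.8 CPM in rods and 36.1 CPM in rod bipolar cells to 85.7 CPM in cone bipolar cells and 138 CPM in amacrine cells, the last from 8 UMIs. Gabbr2, which couples the pair to G proteins, was led by cone bipolar cells at 255 and 173 CPM. It had 0 UMIs in rod bipolar cells, where the interval of a count of 0 reaches 3.41 CPM. Cones held 11.4 CPM of Gabbr2 (7.7 to 16.3) and rods 0.699 CPM.

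Glycine receptor subunits separated by class. Glra1, an alpha subunit, stood at 124 and 194 CPM in rod bipolar and 72.0 and 149.6 CPM in cone bipolar cells, with 0 UMIs in cones, amacrine cells and Müller glia. Glra2, another alpha subunit, had 13 of its 20 UMIs in amacrine cells, at 196 and 257 CPM, spread over 7 of 9 cells. Glrb, the beta subunit that anchors the receptor to gephyrin, was led by Müller glia at 136 and 139.9 CPM, followed by cone bipolar cells at 88.1 CPM, amacrine cells at 51.8 CPM from 3 UMIs and rod bipolar cells at 24.04 CPM, with no clear preference. Neither Glra1 nor Glra2 was found in Müller glia. Glra3 held 34 UMIs in all and Glra4 11.

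AMPA receptor subunits differed between the bipolar classes. Gria2, which makes the channel impermeable to calcium, stood at 687 and 702 CPM in cone bipolar and at 912 and 807 CPM in amacrine cells, but at only 6.52 and 6.37 CPM in rod bipolar cells. Rods held 24.1 and 24.9 CPM of Gria2, above the 5.71 CPM (3.19 to 9.41) of cones. Gria1 stood at 296 and 306 CPM in rod bipolar cells and 267 and 69.0 CPM in cone bipolar cells. The lower white-light value in cone bipolar cells rests on 6 UMIs in 11 cells, and the intervals of the bipolar classes overlapped over both libraries (267 to 333 and 183 to 276 CPM). Gria4 was led by amacrine cells at 1629 and 1467 CPM, in all 9 cells, followed by Müller glia at 537 and 465 CPM. Gria3 held 19 of its 47 UMIs in amacrine cells, 4 of 5 and 8 of 14 of them in 1 cell.

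Kainate receptor subunits had different leading classes. Grik1 stood at 1804 and 3267 CPM in cone bipolar cells, at 189 and 201 CPM in rod bipolar cells and at 2.13 and 9.67 CPM in rods. In cone bipolar cells 141 of 601 and 238 of 284 of its UMIs came from 1 cell, and the level over both libraries was 2106 CPM, 1269.7 CPM without those cells and 1139 CPM with the rod RNA limit halved. Grik2 stood at 1695 and 2017 CPM in amacrine cells, in all 9 cells, against 27.9 CPM in Müller glia and 0 UMIs in cones and rod bipolar cells. Grik4, an accessory subunit, was led by Müller glia at 45.9 and 34.0 CPM, and Grik5, the other accessory subunit, was found in all classes, from 14.7 CPM in rods to 73.8 CPM in cone bipolar cells. Grik3 had 66 UMIs, 18 of them in cones at 6.85 CPM.

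Delta receptors bind D-serine or glycine and link synapses through cerebellins. Grid1 stood at 679 and 732 CPM in rod bipolar and 555 and 426 CPM in cone bipolar cells, and at 99.4 and 125 CPM in Müller glia.

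NMDA receptor subunits were led by amacrine cells for Grin1 and Grin2b and by cone bipolar cells for Grin3a. Grin1, the subunit that every NMDA receptor needs, stood at 261 and 513 CPM in amacrine cells and 132 and 115 CPM in cone bipolar cells. It was not counted in Müller glia, where the interval of 0 UMIs reaches 4.68 CPM. Grin2b stood at 587 and 623 CPM in amacrine cells, with all 17 white-light UMIs in 1 cell, and at 134 and 155 CPM in Müller glia. Grin3a stood at 78.0 and 149.6 CPM in cone bipolar cells, in 11 of 56 of them. Grin2d was the only one of the 31 genes that rods led, at 7.52 CPM (6.81 to 8.29), without a clear preference. Grin2a had 13 UMIs, Grin2c 3 and Grin3b 45, and Grin1os, which lies within Grin1 on the other strand, had 2.

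Of the metabotropic receptors, Grm8, a presynaptic receptor that lowers transmitter release, was the receptor gene with most UMIs, 48089 in the 6 classes, of which rods held 46810. In rods it stood at 870.2 and 839.7 CPM, and 73.0% and 73.3% of rods held at least 1 UMI. Amacrine cells stood higher, at 1988 and 2457 CPM, in 8 of 9 cells, although 43 of the 67 white-light UMIs came from 1 cell. Without the cell with most UMIs in each library the amacrine level was 1631 CPM. In cones it stood at 344 and 354 CPM, which was 0.395 and 0.421 of the rod level, against 0.172 and 0.128 for the 3 rod genes outside the gates. In rod bipolar cells the ratio was 0.13 and 0.121, against 0.146 and 0.135 for those rod genes, and 33.9% and 29.7% of these deeper cells held a UMI. Grm5, a group I receptor coupled to phospholipase C, stood at 1229 and 1505.5 CPM in rod bipolar and 1236 and 886 CPM in cone bipolar cells, and was found in 149 of 152 rod bipolar cells. Grm7, another presynaptic receptor, stood at 417 and 460.2 CPM in cone bipolar cells and 349.9 and 393 CPM in Müller glia, against 53.4 and 50.9 CPM in rod bipolar cells. Grm2, Grm3 and Grm4 had 2, 41 and 9 UMIs.

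**Figure D3:**
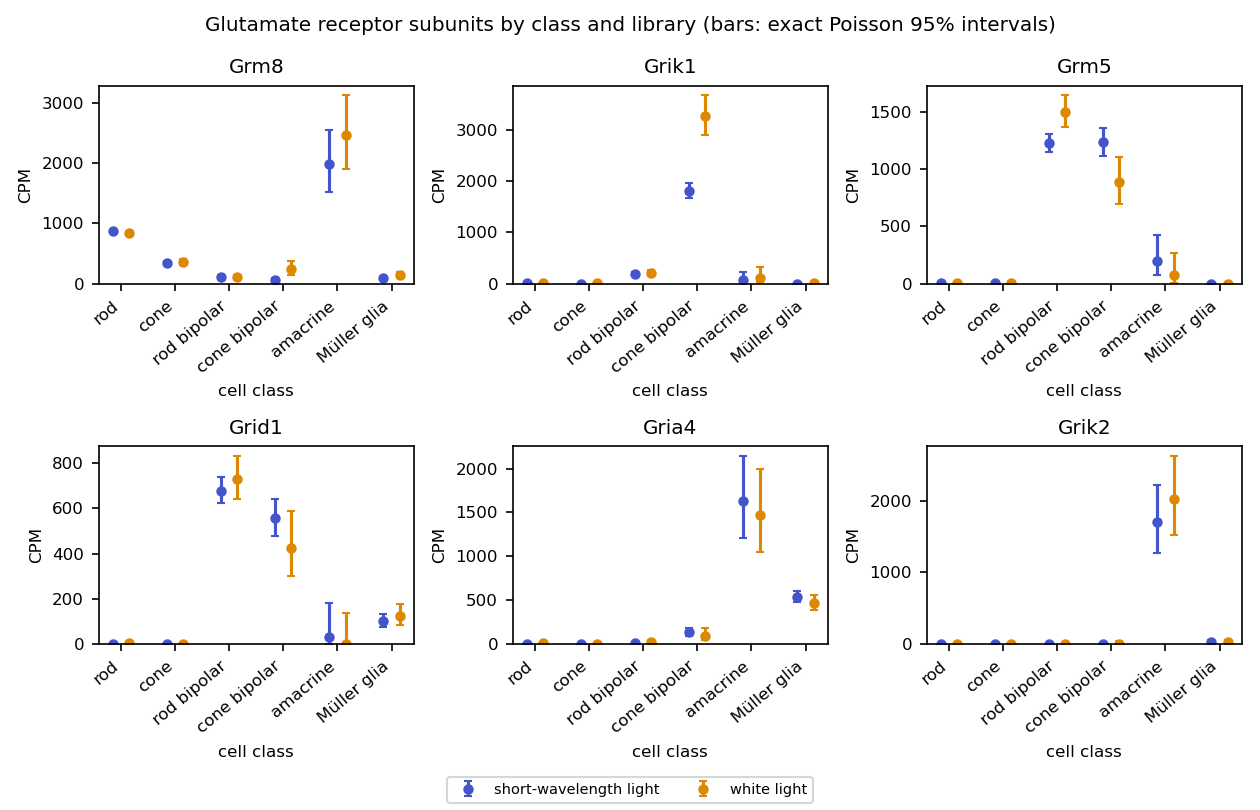
CPM (linear axis) of 6 glutamate receptor genes in 6 classes, drawn as for the GABA receptor genes. Grm8 is high in rods, cones and amacrine cells, Grik1 in cone bipolar cells, Grm5 and Grid1 in both bipolar classes, and Gria4 and Grik2 in amacrine cells.

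Cone bipolar cells were then divided into ON and OFF cells by UMIs of Grm6, Trpm1 and Isl1, with a limit of 5, set after the gap between 4 and 7 UMIs had been seen. This gave 37 and 7 ON cells and 8 and 4 OFF cells. Since the bipolar gate also asks for these markers among others, OFF cells with few other markers may have been missed. Of 24 receptor genes with at least 20 UMIs, 3 were higher in ON cells with an interval beyond 1.5-fold (2.75% of all genes) and 3 higher in OFF cells (2.38%). Grik1 was an OFF gene, at 12242 and 10152 CPM in OFF and 167 and 33.8 CPM in ON cells, 79.5-fold higher in OFF (59.7 to 108). Grm5 was an ON gene, at 1430.3 and 1268 CPM in ON cells against 0 and 2 UMIs in OFF cells, 51.2-fold higher in ON (14.1 to 424). Among the 12 OFF cells, 10 held Grik1 without Grm5, 1 Grm5 without Grik1, 1 neither and 0 both. Of the 44 ON cells, 37 held Grm5 without Grik1, 4 both and 3 neither, and 45 of the 50 Grik1 UMIs in ON cells came from 1 cell. Without the cell with most UMIs of each gene the 6 calls were the same genes.

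Inhibitory receptors differed between ON and OFF cells too. Glra1 stood at 354 and 468 CPM in OFF cells against 27.8 and 0 CPM in ON cells, 17.3-fold higher in OFF (7.7 to 43.7). Gabrr3 stood at 221 and 360.01 CPM in OFF against 86.8 and 50.7 CPM in ON cells, 3.4-fold higher (1.82 to 6.25). Gabrr2 stood at 969 and 828 CPM in ON against 288 and 252 CPM in OFF cells, 3.45-fold higher in ON (2.19 to 5.72). Several white-light values rest on few UMIs. In the 4 white-light OFF cells, Gabrr2 had 7 UMIs, 6 of them in 1 cell, and Glra1 had 13, 9 of them in 1 cell. In the 7 white-light ON cells, Gabrr3 had 3 UMIs. Gabrr1 was at 242 CPM (ON) and 260.5 CPM (OFF), a ratio of 0.929 (0.56 to 1.62). With the limit at 2 marker UMIs, Gria1 took the place of Gabrr3 among the calls, and with the limit at 8, Grin3a was among them.

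**Figure D4:**
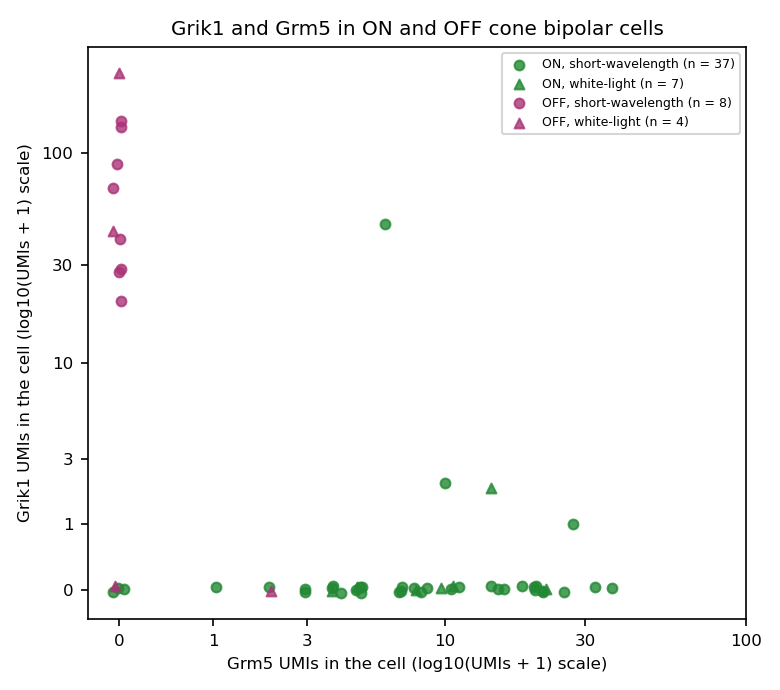
UMIs of Grm5 (x axis) and Grik1 (y axis) in each of 56 cone bipolar cells, on log10(UMIs + 1) scales with a small random shift of points, green for ON and purple for OFF cells, circles for the short-wavelength and triangles for the white-light library. OFF cells lie along the Grik1 axis and ON cells along the Grm5 axis, with 1 ON cell at 45 Grik1 UMIs.

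Set against rods, the class that supplied most RNA, cone bipolar cells had 25 of 37 receptor genes above rods with an interval beyond 1.5-fold (13.5% of all genes) and 1 below (7.19%). Rod bipolar cells had 21 of 37 above (14.7%) and 2 below (12.1%), and amacrine cells 23 of 37 above (8.57%) and 0 below (3.2%). Müller glia had 13 of 36 above (18.2%) and 3 below (10.7%). Cones had 10 of 36 above (11.7%), with the GABA-A and rho subunits Gabrg3, Gabra5, Gabrr3 and Gabrd among them, and 6 below (6.88%). Grm8 was below rods in cones, both bipolar classes and Müller glia. Gria2 and Gabrr2 were below rods in cones, and Gria2 also in rod bipolar cells.

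Proteins that work with these receptors were counted from 3 lists by the same preference rule. Of 12 glutamate receptor partners with enough UMIs, 5 had a clear leading class, beside 15.5% of all genes. These were Dlg2, a scaffold, in rod bipolar cells (7221 and 6751 CPM), Dlg4, another scaffold, in rods (707 and 648 CPM), Shisa9, an AMPA receptor auxiliary protein, in Müller glia (482 and 510.4 CPM), and Cacng3 and Grip1 in amacrine cells. Of 11 GABA and glycine receptor partners, 4 had one: Slc12a5, the chloride extruder that sets the sign of GABA responses, in cone bipolar cells (882 and 851 CPM), Plcl1 in rod bipolar cells, and Kctd8 and Kctd16, auxiliary GABA-B proteins, in amacrine cells. Of 11 transmitter transport genes, 7 had one. The glutamate transporter Slc1a2 (1226 and 1263 CPM) and the vesicular transporter Slc17a7 (1003 and 954 CPM) were led by cones, and the GABA transporter Slc6a11 and the glutamine transporter Slc38a3 by Müller glia. Slc38a1, another amino acid transporter, was led by rod bipolar cells.

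Between light conditions, the receptor genes were compared in the 4 classes with at least 20 cells in each library. A gene was called where it had at least 20 UMIs over both libraries and the interval of the ratio lay beyond 1.5-fold. In rods, 0 of 36 receptor genes were called higher under short-wavelength light (0.137% of all genes) and 2 were called lower (0.574%). Of the 5 with most UMIs, Grm8 was at a ratio of 1.04 (1.02 to 1.06), Gabrr2 at 1.001 (0.913 to 1.1), Gabbr1 at 1.07 (0.96 to 1.18) and Gria2 at 0.966 (0.86 to 1.09). The median log2 ratio of the 36 was -0.54, with 29 below 0. Over all 14635 genes, which were not matched to the 36 by UMIs, it was 0.0017, with 7259 below 0. Beside the receptor genes, the 12 bipolar markers summed to 35.1 and 44.9 CPM in rods, with 8 lower under short-wavelength light. The 14 cone bipolar markers summed to 19.2 and 23.9 CPM, with 11 lower, and the 4 erythrocyte markers to 50.8 and 90.5 CPM, with 4 lower. The 5 horizontal cell markers summed to 54.1 and 58.5 CPM, with 5 lower, and the 16 Müller glia markers to 123 and 129 CPM, with 10 lower. The 10 microglia markers summed to 30.8 and 29.3 CPM, with 4 lower. The amacrine markers summed to 50.2 and 49.1 CPM, with 6 lower, and this sum may hold Meis2, which is found in rods. In rods no bipolar or erythrocyte marker was at 0, 1 and 2 of the cone bipolar markers were, and 1 and 5 of the amacrine markers. Their part in the shift of the receptor genes was not tested.

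The genes called lower in rods were Grik1 and Gria4. Grik1 had 80 UMIs in 13181 short-wavelength rods and 163 in 5000 white-light rods, 2.13 and 9.67 CPM, 4.54-fold lower (3.45 to 6.01) under short-wavelength light. Of the white-light UMIs, 121 lay in 28 rods with at least 2, with up to 14 in 1 rod, while no short-wavelength rod held more than 2. Counting only the UMIs from rods with exactly 1, over the UMIs of all rods, the levels were 2.02 and 2.49 CPM. Their ratio was 0.812 (0.55 to 1.21), so the call rested on those 28 rods. The 15 white-light rods with at least 4 Grik1 UMIs held 379 CPM of bipolar markers, against 43.8 CPM in the other white-light rods, and 11 of the 15 held at least 1 bipolar marker UMI. Gria4 had 63 and 78 UMIs, 1.68 and 4.63 CPM, 2.76-fold lower (1.95 to 3.91). Its UMIs were spread thinly. Those from rods with exactly 1, over the UMIs of all rods, came to 1.63 and 4.04 CPM, a ratio of 0.403 (0.28 to 0.577). Both genes stayed called under each of the 14 alternatives that give a count.

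**Figure D5:**
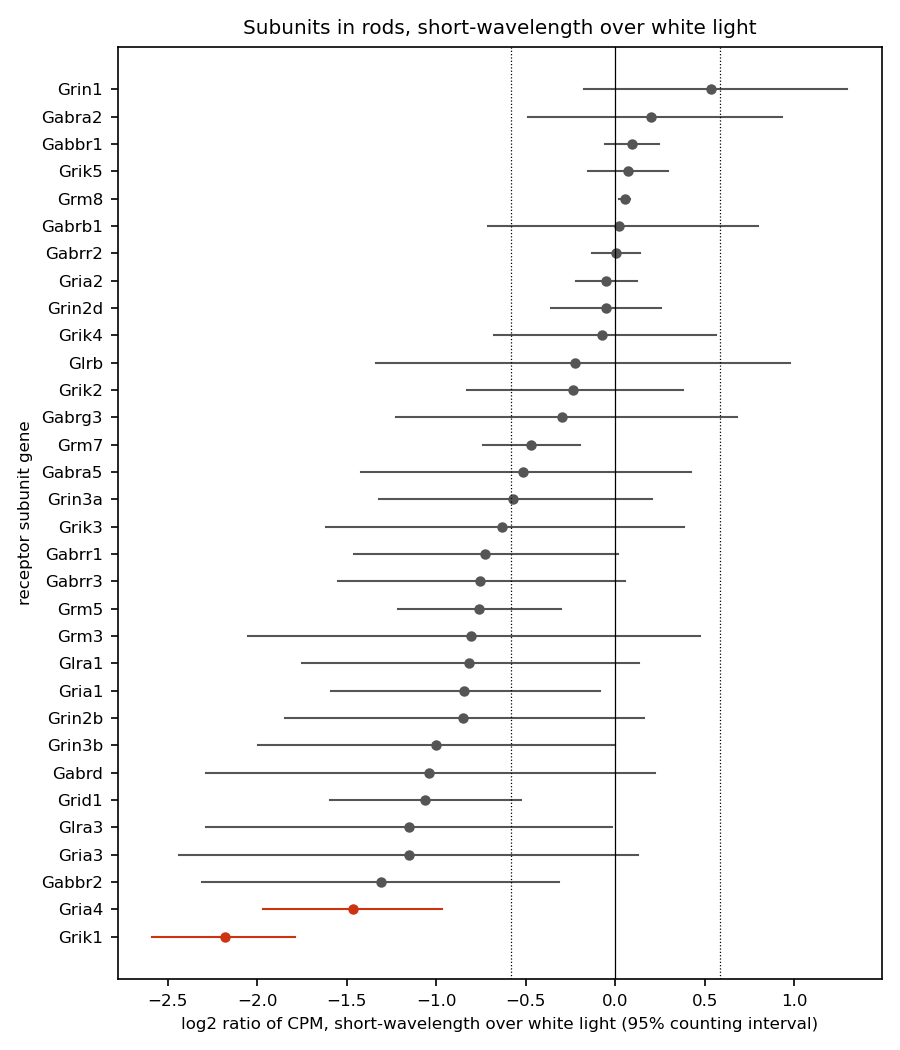
Log2 ratio of CPM in rods, short-wavelength over white light, for 32 receptor genes, with 95% counting intervals, a solid line at 0 and dotted lines at 1.5-fold in each direction. The called genes, in red, are Grik1 at -2.18 and Gria4 at -1.46, and Grm8, Gabrr2, Gabbr1 and Gria2, which have the most UMIs of those drawn, lie between -0.05 and 0.09.

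Outside rods, 1 receptor gene was called, in Müller glia. In cones 0 of 11 genes were called in either direction (0.0926% of all genes higher and 0.0926% lower). Grm8 was at a ratio of 0.971 (0.836 to 1.13), Gabrg3 at 0.895 (0.68 to 1.19) and Gabra5 at 0.755 (0.573 to 1.002). In rod bipolar cells 0 of 18 were called (0.147% higher and 0.0938% lower). There Grm5 was at 0.816 (0.73 to 0.914), Grid1 at 0.928 (0.793 to 1.09), Gabrr2 at 0.951 (0.774 to 1.17) and Gabrr1 at 1.08 (0.856 to 1.37). The intervals, which hold counting error only and no spread between libraries of 1 condition, of Grm8 and Gabrg3 in cones and of the 4 genes named in rod bipolar cells lie within 1.5-fold in both directions.

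In Müller glia 0 of 12 genes were called higher (0.281% of all genes) and 1 lower (0.281%). Gria4 was at a ratio of 1.16 (0.931 to 1.44), Grm7 at 0.89 (0.696 to 1.14), Grin2b at 0.863 (0.579 to 1.3) and Glrb at 0.97 (0.643 to 1.49). The gene called lower was Grin3a, with 6 UMIs against 17, 11.5 and 64.3 CPM, 5.6-fold lower (2.11 to 17.4). The call was lost without the cell that held most of its UMIs in each library, which left fewer than 20, where the log2 ratio was -2.61 (-4.70 to -0.89). In cone bipolar cells (45 and 11) and amacrine cells (5 and 4) no comparison of light conditions was made, and OFF cells made up 8 of 45 and 4 of 11 of the cone bipolar cells whose Grik1 levels are given above.

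Among the partner lists under light, 0 of 18 glutamate receptor partners were called in rods, and 1 of 16 GABA and glycine receptor partners, Kctd16, was lower there, beside 0.137% of all genes higher and 0.574% lower. In Müller glia 1 of 12, Plcl1, was higher, beside 0.281% of all genes. The 7 glutamate receptor partners with enough UMIs in rod bipolar cells all had log2 ratios above 0, with a median of 0.37 against 0.0058 over all genes, and none was called. No transmitter transport gene was called in any of the 4 classes, with 8 to 11 measured in each.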

How the data were processed

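Whole retina was profiled by droplet single-cell RNA sequencing with the 10x Genomics 3′ assay, per the labels' protocols. The values used are the deposited UMI counts of each gene in each barcode, unnormalized. The authors obtained these counts with Cell Ranger 9.0.0 (named in the file headers). The submitters' processing notes list mm10, Seurat and edgeR. Whether intronic or antisense reads were counted is not given in the sources used here. The receptor genes, marker lists and partner lists were chosen with earlier results of these data known.

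The filters required 300 or more genes and no more than 20% mitochondrial UMIs in a barcode. Scrublet (scanpy 1.11.5) marked only 3 and 0 barcodes at its automatic threshold, under 0.5%, so barcodes with the top scores were left out instead, 0.8% for each 1000 barcodes in a library, which came to 12.9% and 4.55%. A class asked for marker UMIs and marker genes: at least 15 UMIs of 3 genes for cones, 10 of 4 for bipolar cells, with 10 of 3 rod bipolar or 3 of 2 cone bipolar markers, 6 of 3 for amacrine cells, 20 of 5 for Müller glia, 10 of 3 for rods. Non-rod classes had rod marker RNA under 0.5 of the library median, and rods had no other gate passed. The markers were fixed first and the thresholds after the data were seen. Meis2 (found in rods) was left out of the amacrine gate, and Pcp2 out of the rod bipolar markers. Cngb3, Gngt2 and Ccdc136, which bipolar cells also hold, were left out of the cone gate after receptor levels had once been seen, and the gate with all 10 markers is among the alternatives. Droplets that passed several gates, or 1 gate with rod RNA over the limit, 120 and 96 together, were left out.

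UMIs were summed per class and library. Levels carry exact Poisson intervals, ratios the exact conditional binomial interval of a pair of Poisson counts. No p-value was computed. Named genes are all with a clear preference, all called between light conditions and the 5 with most UMIs per class, and further receptor genes described were chosen after their values were seen. Counts cover all 53 genes, and results for some genes are not reported here. Gene positions come from GENCODE vM21 on mm10, matched by identifier for 53 of 53 genes. The ratio rule was tested on simulated Poisson counts, which hold counting error only and no further spread between cells or libraries. Scaling alternatives used edgeR 4.0.16 (TMM) in R 4.3.3.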

Additional observations from a re-analysis of the deposited data

Results flagged for a closer look

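Some droplets outside the 6 classes held receptor RNA above its level in rods, and no comparison used them. In 2 white-light droplets with horizontal cell markers, Gria4 stood at 1675 CPM (85 UMIs), Gria2 at 591 CPM, Gria3 at 512 CPM and Grik2 at 276 CPM. In 2 droplets with ganglion cell markers, 1 in each library, Gria4 stood at 1192 CPM, Grik2 at 629.98 CPM, Gria2 at 585 CPM and Gria3 at 337 CPM. Of the white-light droplets, 1 passed both marker sets. In 73 droplets with microglia markers, Grik1 stood at 123 CPM, with all 64 UMIs in 1 white-light droplet, and Grm7 at 26.9 CPM. Gria4 in the horizontal marker droplets and Gria3 in both the horizontal and ganglion marker droplets stood above the level of their leading class, amacrine cells (1553 and 328 CPM), with overlapping intervals, and the other levels did not.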

How the results depend on the processing

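The count of 18 clear preferences stayed within 1.5 times under the other cell filters, gates, totals and minimum (13 to 19), but was 6 with cells thinned to 1000 UMIs and 11 in the short-wavelength library alone. Of the 18, 6 were called under all 9 alternatives, Gabrr2, Grm8, Gria4, Grik2 and Grik1 among them, and 12 others were lost under 1 to 4. Of 180 alternative levels of these genes, 151 stayed within the main counting interval. Grik1 in cone bipolar cells ranged from 1139 CPM (rod limit halved) to 2375 CPM, and Gabrg3 in amacrine cells from 406 CPM (without the top cell) to 1488 CPM. In cones, 0 light calls became 1 (Grik1) with all 10 cone markers in the gate and 2 (Gabrb1 and Grm7) with no minimum of UMIs. In Müller glia, 1 call became 2 with no rod limit, where Grm8 was added, and 0 with thinning, without the top cell or with a minimum of 50 UMIs. In rods the count was 2 or 3. TMM and median-of-ratios scaling moved all ratios by at most 0.034 on the log2 scale and changed no call. The cause was not tested. Amacrine values rest on 9 cells. No paired analysis was possible because each condition has 1 library.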

Other observations

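Grik1 was also found outside the gated classes. Of all Grik1 UMIs in kept short-wavelength droplets, 21.6% lay in droplets that passed no gate, where 3 droplets held at least 4. In the white-light library 19.7% lay in droplets left out for passing several gates, or a gate with rod RNA over the limit. Among these, 3 droplets again held at least 4. Rods held 7.57% and 22.5% of all Grik1 UMIs, and cone bipolar cells 56.9% and 39.1%.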
